A study of Arabidopsis thaliana with 16 samples.

Results

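The comparison was between shoot apices of dark-grown Arabidopsis seedlings that had been in white light for 24, 48 or 72 h and apices of seedlings still in the dark. Late light stands for the 24, 48 and 72 h arrays pooled into 1 mean, with 1 array for each time, and the dark group has 2 arrays. These are 5 of the 16 arrays of the series, chosen by their labels, and all were Affymetrix ATH1 arrays hybridised with biotin-labelled total RNA. The seedlings were Landsberg erecta, sown on agar without sucrose. Seeds had 30 min of fluorescent white light at 100 µmol m-2 s-1 to start germination, and then 3 days of darkness at 21 °C. The late groups went back to white light from there, and the dark group was harvested at that point under green safelight. The light-grown seedlings were therefore up to 72 h older, and light and age cannot be told apart. Each sample pooled the dissected apices of about 1500 seedlings (72 h) to over 4000 seedlings (dark) from several experiments. The labels give the tissue at 48 and 72 h as the meristem region together with developing leaf primordia, and in the dark as the meristem region, so light and the share of young leaf cannot be told apart either. In such bulk samples fewer cells of a type and less RNA per cell cannot be told apart.

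A seedling that germinates in darkness lengthens its hypocotyl, keeps its cotyledons closed and arrests its shoot apex. Light, perceived by phytochromes and cryptochromes, ends that state: chloroplasts develop, anthocyanins accumulate and the apex starts to form leaves. A dark seedling without sugar lives on its seed reserves, mainly oil, whose carbon reaches sugars through fatty acid breakdown and the glyoxylate cycle.

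The signal is the MAS5 value of a probe set, a summary of the brightness of its probes, scaled by the submitters to a common level on each array. No detection calls were used here, and the 35th percentile of each array, between 12.43 and 18.58 signal units, was taken as the floor. A change is the mean log2 signal over 24, 48 and 72 h minus the mean over the dark arrays, with its standard error (SE) and a Benjamini-Hochberg adjusted p from limma, fitted over all 16 arrays. A gene is said to rise or fall where the adjusted p was under 0.05. A group whose arrays all lay at or under the floor has only an upper limit, and the change is then printed as at least N-fold, measured against that floor. Where only some arrays of a group did, the change is printed as fitted, and its size rests partly on signals without order. A gene counts as measured where a probe set belongs to it alone and exceeded the floor on at least 2 of the 16 arrays. Nothing in the labels says that the arrays of a group came from separate cultures, so p-values measure the spread between these samples. Genes printed by locus alone have no name in the annotation used, and no role is given for them.

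Of the arrays compared, dark replicate 2 stood apart. The median signal of 9 spike-in controls was 1133 on it and between 188.8 and 522.7 on the other 15 arrays. The 25S rRNA signal was 9.01, 8.68 and 37.1 on the late arrays, against 45.1 on dark replicate 1 and 577 on dark replicate 2. The ratio of 3′ to 5′ GAPDH signal was 1.31, 0.911 and 1.57 on the late arrays, against 0.899 and 1.78 on the dark arrays. Log2 signals correlated across probe sets at 0.867 to 0.919 among the late arrays, at 0.785 to 0.837 between late and dark arrays, and at 0.896 between the dark arrays. On 6 h replicate 2, which enters the comparison with 6 h and the shared estimate of the spread, the GAPDH ratio was 5.40, against 0.832 to 1.85 on the other apex arrays. Its 3′ to 5′ actin ratio was 30.4 and its 25S rRNA signal 1.41, against 9.87 and 12.5 on 6 h replicate 1, and the part of this in the 6 h values below was not tested. Calls lost without dark replicate 2 are named beside the genes concerned or counted beside their list. The test used signals below the floor as they stood, and where raising them to it, an alternative chosen after seeing the data, changed the call of a gene described below, the adjusted p is given.

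Late light and dark apices differed at 2740 of 18237 probe sets tested, 15.0%, of which 1570 (8.61%) were higher and 1170 (6.42%) were lower in late light. The change was at least 2-fold for 2205 of them. A fit to the 5 compared arrays alone, with the late arrays as 1 group, called 1953 probe sets. Across all tested probe sets, called or not, the late and dark arrays did not overlap at 43.0%, 22.9% with late light higher and 20.1% with late light lower. Of the calls 57.3% were higher in late light, and 47.5% were with each array centred on its median signal, a scaling that moved the median of all probe sets to -0.10 from 0.02. Among the 10269 genes with a probe set of their own, 740 rose and 627 fell. For 275 of the rises both dark arrays lay at or below the floor, and for 68 of the falls all late arrays did. Of the 2740, 2712 lay on the same side of the dark mean at 24, 48 and 72 h. Falls were most often furthest from the dark mean at 72 h (542 of 1170), and rises at 24 h (676 of 1570). Without dark replicate 2 the count was 1470 (923 higher and 547 lower), and without dark replicate 1 it was 1917, with 662 lower.

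The 12 largest rises by fitted change took in genes that were barely detected in the dark. For this ranking and that of the falls, only genes with all late arrays on 1 side of both dark arrays were eligible. The ranking used signals below the floor as they stood, so its order is not that of the lower limits. THI2.2 (AT5G36910), which codes for a thionin, a small antimicrobial peptide, had 4060, 5015 and 1825 signal units after 24, 48 and 72 h of light, against 9.40 and 41.6 in the dark. The 72 h array was the lowest of its 3 late arrays. The rise was 7.40 ± 0.44 (SE, adjusted p = 2.58e-07) on the log2 scale. AT5G48490 had 1979, 1506 and 1245 signal units after 24, 48 and 72 h of light, against 25.7 and 21.9 in the dark. It rose by 6.03 ± 0.57 (SE, adjusted p = 1.12e-05). The basic helix-loop-helix factor UPB1 (AT2G47270), known from the root for control of peroxidase genes, had 47.1, 338 and 521 signal units after 24, 48 and 72 h of light, against 7.22 and 2.33 in the dark. Its signal was higher at each later time, and it was at least 12.3-fold higher in late light (adjusted p = 0.0251). That call was lost without dark replicate 1, dark replicate 2, the 48 h array or the 72 h array (highest adjusted p = 0.182).

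AT5G43450 had 202, 374 and 441 signal units after 24, 48 and 72 h of light, against 0.681 and 1.41 in the dark, at least 19.6-fold higher (adjusted p = 9.78e-05). AT1G60590 had 248, 206 and 113 signal units after 24, 48 and 72 h of light, against 1.91 and 1.78 in the dark, at least 10.9-fold higher (adjusted p = 4.6e-05). Both were at or below the floor on each dark array and above it on each late array. The same held for AT5G58390, AT4G15660, AT3G52740, AT1G70820 and AT5G63060, whose lower limits were 6.65, 5.48, 4.86, 3.68 and 2.23-fold (adjusted p = 5.96e-07 to 0.000395). AT3G44970 and AT3G57020 rose by 5.02 ± 0.32 (SE, adjusted p = 4.49e-07) and 4.90 ± 0.55 (SE, adjusted p = 4.06e-05), and their late arrays were between 424.5 and 929.5 signal units. Of the 12, AT5G43450 and UPB1 had their highest signal at 72 h, as did AT1G70820.

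The largest falls included seed and auxin genes. OLEO3 (AT5G51210), an oleosin that coats the oil bodies of seeds, had 17.2, 16.3 and 16.8 signal units after 24, 48 and 72 h of light, against 1059 and 867 in the dark. All 3 late arrays were at or below the floor, and the gene was at least 51.9-fold lower (adjusted p = 8.75e-07). IAA20 (AT2G46990), an auxin-response repressor, had 4.32, 2.10 and 22.7 signal units after 24, 48 and 72 h of light, against 240.1 and 280.4 in the dark. Its only late signal above the floor was at 72 h, and it fell by 5.46 ± 0.32 on the log2 scale (adjusted p = 2.58e-07). The size of that fall rests on its 24 and 48 h signals below the floor and is uncertain. SUFE2 (AT1G67810), a factor of iron-sulfur cluster assembly, had 3.13, 2.35 and 5.54 signal units after 24, 48 and 72 h of light, against 180.5 and 189 in the dark, with every late array below the floor. It was at least 10.0-fold lower (adjusted p = 1.24e-08).

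AT5G44440 was lower at each later time, with 677, 51.9 and 2.76 signal units after 24, 48 and 72 h of light, against 2379 and 3232 in the dark. It fell by 5.91 ± 0.31 on the log2 scale (adjusted p = 1.07e-07). Only its 24 and 48 h arrays were above the floor among the late arrays, so the size of the fall is uncertain. For AT2G34020 and AT5G02580 the late signals lay between 0.629 and 11.4, against dark signals between 259 and 519. Their lower limits were 23.9-fold for AT2G34020 (adjusted p = 1.99e-07) and 14.7-fold for AT5G02580 (adjusted p = 3.15e-05). AT1G12080 fell by 5.06 ± 0.53 on the log2 scale (adjusted p = 2.69e-05), with 126, 39.3 and 34.9 signal units after 24, 48 and 72 h of light, against 1460 and 2380 in the dark. AT2G47780, AT4G29270 and AT4G35720 fell, with log2 changes of -4.99, -4.92 and -4.76, and each was at or below the floor on at least 1 late array. AT4G29700 and AT5G42860 were at least 1.54-fold and 4.37-fold lower (adjusted p = 4.71e-05 and 0.01), and the call of AT5G42860 was lost without dark replicate 1 or dark replicate 2 (highest adjusted p = 0.0904). With dim signals raised to the floor AT4G29700 was not called (adjusted p = 0.208).

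**Figure D1:**
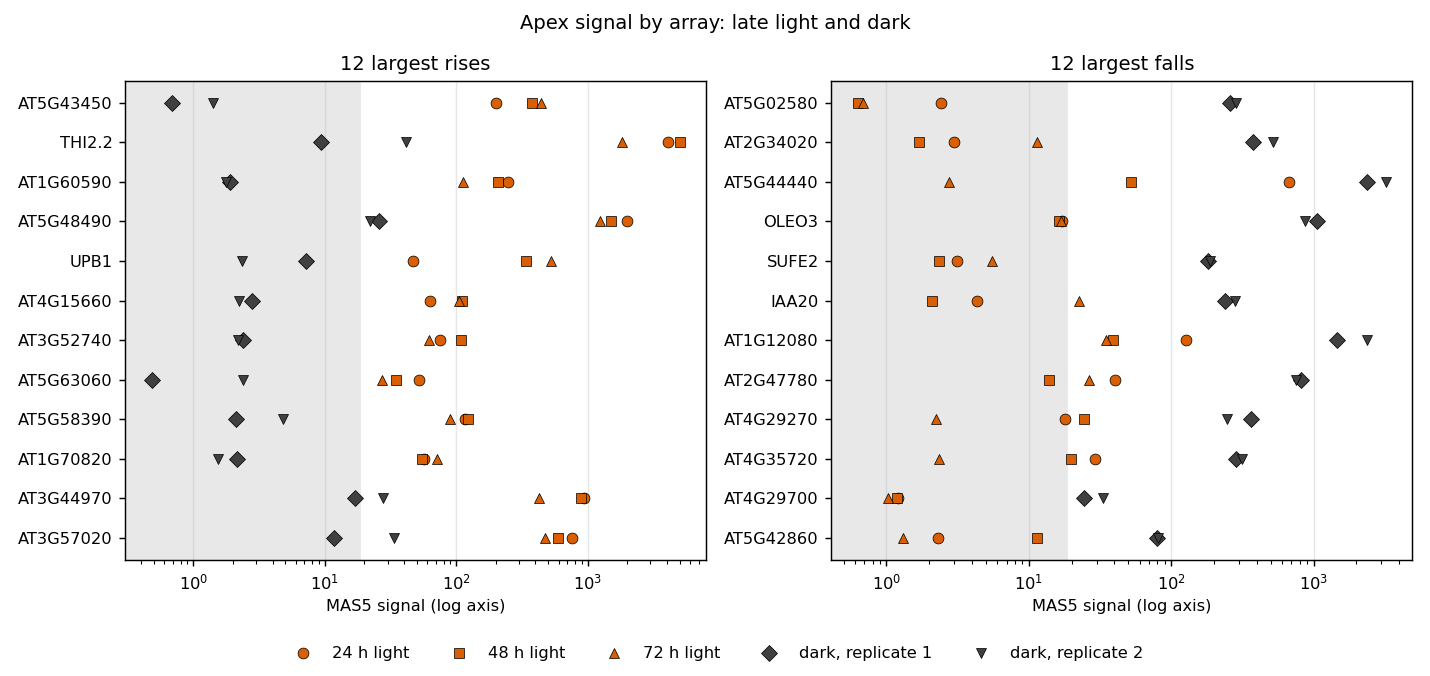
MAS5 signal (log axis) of the 12 genes with the largest fitted rises (left) and the 12 with the largest fitted falls (right) on each late light array (orange: circle 24 h, square 48 h, triangle 72 h) and each dark array (grey). The shaded range ends at 18.58 signal units, the highest 35th percentile of any array, and values inside it have no order; in every gene the 3 late arrays lie on 1 side of both dark arrays, which the choice of the genes required.

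Most measured genes on the light signalling list rose. Of its 27 genes 4 were measured and 3 of them rose, beside 8.61% of all probe sets called higher. HYH (AT3G17609), a bZIP factor related to HY5 that promotes light responses, had 164, 192 and 164 signal units after 24, 48 and 72 h of light, against 17.5 and 37.8 in the dark. The late arrays differed little among themselves and all exceeded the dark arrays, and the rise was 2.75 ± 0.33 (SE, adjusted p = 8.26e-05). AT3G52740 was at or below the floor in the dark and above it at each late time, as given above. AT3G44450 had 94.8, 66.5 and 46.0 signal units after 24, 48 and 72 h of light, against 8.30 and 24.7 in the dark, and rose by 2.21 ± 0.57 (SE, adjusted p = 0.0172), a call lost without dark replicate 1 or the 24 h array (highest adjusted p = 0.202). FHL (AT5G02200), which carries phytochrome A towards the nucleus, measured -1.72 (adjusted p = 0.254), and its dark arrays of 16.9 and 50.0 spanned the 72 h value of 21.0. The clock gene GI (AT1G22770) had 156, 168 and 226 after 24, 48 and 72 h, against 200.3 and 164 in the dark, a difference of -0.00 (adjusted p = 0.996), with overlapping groups.

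Most measured flavonoid synthesis genes rose. Of 22 genes 7 were measured and 5 rose, beside 8.61% of all probe sets called higher. Most of the 7 were at or below the floor on both dark arrays and count as measured only through other arrays. A gene as dim in the dark that stayed below the floor elsewhere could not enter. The count of rises therefore follows in part from this filter, which was the same for all tested probe sets. The median change was 2.69, beside 0.02 for all tested probe sets. With dim signals raised to the floor it was 1.74, beside 0.095, so its size depends on dark signals below the floor. DFR (AT5G42800), dihydroflavonol reductase of the anthocyanin branch, had 268, 186 and 60.1 signal units after 24, 48 and 72 h of light, against 14.7 and 33.8 in the dark. Its lowest late array was above the highest dark array, and it rose by 2.69 ± 0.48 (SE, adjusted p = 0.0017). UGT78D2 (AT5G17050), a glucosyltransferase of flavonols and anthocyanins, had 158, 153 and 84.1 after 24, 48 and 72 h, against 18.3 and 32.2 in the dark, and rose by 2.38 ± 0.32 (SE, adjusted p = 0.000175). Neither gene had overlapping groups.

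The other members were at or below the floor on both dark arrays. CHIL (AT5G05270), a chalcone isomerase-like protein, had 95.6, 94.2 and 39.6 after 24, 48 and 72 h, against 3.64 and 3.63 in the dark, at least 4.32-fold higher (adjusted p = 2.53e-05). AT1G06000 was at least 1.97-fold higher (adjusted p = 2.58e-07), and UGT78D1 (AT1G30530), a flavonol rhamnosyltransferase, at least 2.60-fold (adjusted p = 0.00555), a call lost without the 24 h array (highest adjusted p = 0.0545). UF3GT (AT5G54060), an anthocyanin glycosyltransferase, and AT4G14090 were not called (adjusted p = 0.0726 and 0.255), although UF3GT was without the 72 h array (adjusted p = 0.0472) and with dim signals raised to the floor (adjusted p = 0.0022). All 7 members were lower at 72 h than at 24 h, with a median log2 difference of -1.64, which rests on 1 array a time. Relative to 6 h of light the list was lower in late light, with 6 of 7 called lower and a median of -2.07, beside 8.50% of all probe sets called lower in that comparison. Without the 72 h array 3 of the 7 were called lower than after 6 h.

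Nuclear genes of the photosynthetic apparatus were higher in late light. Of 48 genes 7 were measured and 6 rose, beside 8.61% of all probe sets called higher, with a median of 1.20. PSAN (AT5G64040), a subunit of photosystem I at the plastocyanin docking side, had 3501, 3820 and 2652 signal units after 24, 48 and 72 h of light, against 999 and 992 in the dark. PSAE-1 (AT4G28750), another photosystem I subunit, had 6339, 5726 and 5390 after 24, 48 and 72 h, against 2127 and 2077 in the dark. LHCB4.2 (AT3G08940), a minor antenna protein of photosystem II, had 3477, 2972 and 1588 after 24, 48 and 72 h, against 1009 and 848 in the dark. In all 3 genes every late array was above both dark arrays, and the dark pair lay close together.

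These genes rose by 1.72 ± 0.24 (SE, adjusted p = 0.000265), 1.47 ± 0.30 (SE, adjusted p = 0.00415) and 1.46 ± 0.26 (SE, adjusted p = 0.00163). PSBW (AT2G30570) and PSBY (AT1G67740), small proteins of photosystem II, and ATPC1 (AT4G04640), a subunit of the chloroplast ATP synthase, rose by 1.20, 1.06 and 0.96. LHCB4.1 (AT5G01530), the paralogue of LHCB4.2, had 6729, 6580 and 6444 after 24, 48 and 72 h, against 4150 and 4661 in the dark, a difference of 0.58 (adjusted p = 0.223). The summed signal of the 7 genes was 31519, 29797 and 25034 on the late arrays, against 13418 and 13278 in the dark. Without dark replicate 2 the number called was 3 of the 7, and without dark replicate 1 it was 4.

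Carbon fixation and photorespiration genes were few among those measured, and most of them rose, beside 8.61% of all probe sets called higher. Of 3 measured genes of the Calvin cycle, RCA (AT2G39730), Rubisco activase, and SBPASE (AT3G55800), sedoheptulose-bisphosphatase, rose by 1.28 ± 0.28 (SE, adjusted p = 0.00632) and 1.16 ± 0.27 (SE, adjusted p = 0.00983). RCA had 5490, 5947 and 5332 after 24, 48 and 72 h, against 2317 and 2265 in the dark. Both calls were lost without dark replicate 2 (adjusted p = 0.0525 and 0.136), and PRK (AT1G32060), phosphoribulokinase, measured 0.49 (adjusted p = 0.249). Of 3 photorespiration genes 2 rose. AT1G80380 had 1045, 1570 and 2017 after 24, 48 and 72 h, against 381 and 308 in the dark, higher at each later time, and rose by 2.12 ± 0.20 (SE, adjusted p = 1.28e-05). HPR (AT1G68010), hydroxypyruvate reductase of the peroxisome, rose by 1.21 ± 0.27 (SE, adjusted p = 0.00682), a call lost without dark replicate 1 (highest adjusted p = 0.0757).

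Chlorophyll synthesis genes gave a single call. Of 7 measured genes 0 rose in limma's test (0 also at an unadjusted p under 0.05) and 1 fell, beside 6.42% of all probe sets, and the median was 0.02. The gene that fell was PORB (AT4G27440), a light-dependent protochlorophyllide reductase abundant in dark-grown seedlings, with 719, 423 and 647 signal units after 24, 48 and 72 h of light, against 3667 and 5867 in the dark. The highest late array was well below the lower dark array, and the fall was 3.00 ± 0.29 on the log2 scale (adjusted p = 1.23e-05). HEMB1 (AT1G69740) and HEME2 (AT2G40490), enzymes of tetrapyrrole synthesis, CHLI2 (AT5G45930), a subunit of magnesium chelatase, and CHLM (AT4G25080), a methyltransferase, measured between 0.02 and 0.35. Relative to 6 h of light 5 of the 7 were lower, beside 8.50% of all probe sets, with a median of -1.09. All 7 were lower at 72 h than at 24 h.

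The 69 measured genes of the chloroplast genome gave counts that turned on the dark arrays. Their median relative to the dark mean was -0.72, -0.88 and -0.67 at 24, 48 and 72 h, against -0.73 on dark replicate 1 and 0.73 on dark replicate 2. Of the 69 genes 3 fell (petA, petD and rpl36), a share below the background of 6.42%. Without dark replicate 2 0 of 69 fell by limma (0 also at an unadjusted p under 0.05) and the median was -0.13, whereas without dark replicate 1 there were 12 falls and the median was -1.51. The part of dark replicate 2's rRNA and spike-in signal in this was not tested.

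Few ribosomal protein genes of the cytosol were called, although more of them than of all probe sets had late arrays above both dark arrays. Of 82 measured genes of the 60S subunit 5 rose, and of 45 of the 40S subunit 3 rose, beside 8.61% of all probe sets called higher, with medians of 0.20 and 0.31. AT5G22440, on the 60S list, had 486, 576 and 499.6 after 24, 48 and 72 h, against 179 and 267 in the dark, and rose by 1.25 ± 0.21 (SE, adjusted p = 0.00122). Of the 8 rises it alone kept its call without each of the 5 compared arrays in turn, and without dark replicate 1 or dark replicate 2 the counts were 1 for the 60S and 0 for the 40S subunit. The groups did not overlap, with late light higher, for 36 of the 82 and 20 of the 45 genes, beside 22.9% of all probe sets, a difference that was not tested. Against 6 h of light, 8.50% of all probe sets were called lower and 10.3% higher. Relative to 6 h of light 53 of the 82 and 26 of the 45 were lower and 2 of the 82 higher, with medians of -1.01 and -0.90, and 23 and 11 were called lower without 6 h replicate 2. The 9 plastid ribosomal proteins encoded in the nucleus gave 0 calls by limma (1 lower at an unadjusted p under 0.05), a median of -0.04 and a lower signal at 72 h than at 24 h in each.

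**Figure D2:**
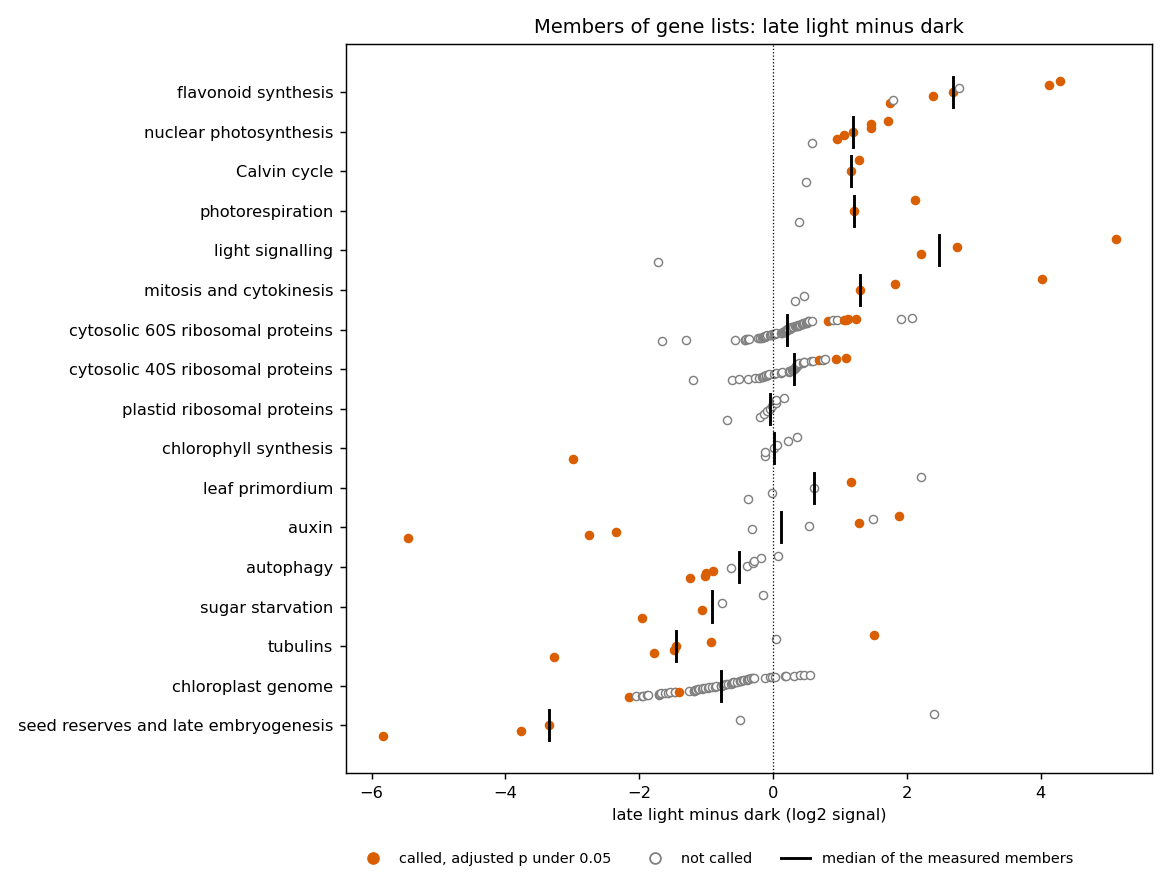
Change in late light against dark (mean log2 signal over 24, 48 and 72 h minus the dark mean) for the measured members of 17 gene lists; each circle is 1 gene, filled where it was called at an adjusted p under 0.05, and the vertical bar is the median of the list. Flavonoid and photosynthesis genes lie to the right of 0 and most tubulin and seed reserve genes to its left, while ribosomal protein genes have medians of 0.20 (60S) and 0.31 (40S).

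Some genes of mitosis rose in late light. Of 26 genes 5 were measured and 3 rose, beside 8.61% of all probe sets called higher, with a median of 1.297. With dim signals raised to the floor the median was 0.84. Without dark replicate 2 the median was 0.66 and 2 were called. AUR2 (AT2G25880), an Aurora kinase of dividing cells, had 143, 123 and 63.1 signal units after 24, 48 and 72 h of light, against 21.3 and 40.1 in the dark, and rose by 1.82 ± 0.37 (SE, adjusted p = 0.00428). BUB3.2 (AT1G49910), of the spindle checkpoint, had 49.0, 26.3 and 19.6 after 24, 48 and 72 h, against 1.91 and 1.71 in the dark, at least 1.79-fold higher (adjusted p = 0.000134), a call lost with dim signals raised to the floor (adjusted p = 0.105). BUB3.1 (AT3G19590) had 105, 79.8 and 59.6 after 24, 48 and 72 h, against 50.3 and 20.7 in the dark, and rose by 1.297 ± 0.38 (SE, adjusted p = 0.035). In all 3 genes the groups did not overlap, which held for 22.9% of all probe sets in this direction, and the signal was lower at each later time.

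The call of AUR2 was lost without dark replicate 1 (highest adjusted p = 0.0722), and that of BUB3.1 without dark replicate 2, the 24 h array or the 48 h array (highest adjusted p = 0.412). AUR1 (AT4G32830) and AUR3 (AT2G45490), the other Aurora kinases, measured 0.46 (adjusted p = 0.216) and 0.33 (adjusted p = 0.552), and their 72 h arrays of 70.2 and 31.3 lay below both dark arrays. All 5 genes were lower at 72 h than at 24 h. Of 5 measured core histone genes HTB1 (AT1G07790), a histone H2B, rose by 1.19 ± 0.28 (SE, adjusted p = 0.0108), a call lost without dark replicate 2 (highest adjusted p = 0.196), and the list median was -0.03. PRL (AT4G02060), a subunit of the replication licensing complex, had 132, 107 and 46.0 after 24, 48 and 72 h, against 89.0 and 103 in the dark, and measured -0.15 (adjusted p = 0.812).

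Most measured tubulin genes fell. Of 7 measured genes, 5 fell and 1 rose, beside 6.42% and 8.61% of all probe sets called lower and higher. TUB1 (AT1G75780), a beta-tubulin of elongating dark-grown tissue, had 231, 86.1 and 21.0 signal units after 24, 48 and 72 h of light, against 721 and 722 in the dark. The signal was lower at each later time and the dark arrays nearly coincided. It fell by 3.27 ± 0.27 on the log2 scale (adjusted p = 3.67e-06). TUB6 (AT5G12250), TUB5 (AT1G20010) and TUA6 (AT4G14960) fell too, with log2 changes of -1.78 ± 0.26 (SE, adjusted p = 0.000328), -1.48 ± 0.24 (SE, adjusted p = 0.000784) and -1.45 ± 0.24 (SE, adjusted p = 0.00104).

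TUB9 (AT4G20890) fell by 0.93 ± 0.21 on the log2 scale (adjusted p = 0.00713), a call lost without dark replicate 1 (highest adjusted p = 0.0638). The alpha-tubulin TUA1 (AT1G64740) went the other way, with 296, 482 and 513 after 24, 48 and 72 h, against 151 and 142 in the dark, and rose by 1.51 ± 0.25 (SE, adjusted p = 0.000833). TUB7 (AT2G29550) had 399, 308 and 203 after 24, 48 and 72 h, against 319 and 251 in the dark, and measured 0.05 (adjusted p = 0.923), its late values lying on both sides of the dark ones. The list median was -1.45. Against 6 h, 5 of the 7 were lower and 1 higher, beside 8.50% and 10.3% of all probe sets.

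Of 17 measured expansins and xyloglucan endotransglucosylases (XTH), which loosen or remodel the cell wall, 3 rose and 2 fell, and the median was -0.00. These shares are read as no result about the family, beside 8.61% and 6.42% of all probe sets called higher and lower. XTH32 (AT2G36870) had 1239, 1004 and 262 after 24, 48 and 72 h, against 151 and 152 in the dark, and rose by 2.18 ± 0.25 (SE, adjusted p = 5.57e-05). The beta-expansin EXPB3 (AT4G28250) had 284, 256 and 49.4 after 24, 48 and 72 h, against 27.9 and 6.74 in the dark, and rose by 3.48 ± 0.57 (SE, adjusted p = 0.000871). Both were lowest at 72 h among the late arrays and still above the dark arrays. EXPB3 was below the floor on dark replicate 2, so the size of its rise is uncertain. EXPB2 (AT1G65680) was at least 1.58-fold higher (adjusted p = 0.0452), a call lost without dark replicate 2, the 24 h array, the 48 h array or the 72 h array (highest adjusted p = 0.47) and with dim signals raised to the floor (adjusted p = 0.124).

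EXPA4 (AT2G39700) had 184, 131 and 35.1 after 24, 48 and 72 h, against 846 and 610.1 in the dark, and fell by 2.92 ± 0.41 on the log2 scale (adjusted p = 0.00028). EXPA9 (AT5G02260) had 25.1, 19.1 and 34.0 after 24, 48 and 72 h, against 250.4 and 116 in the dark, and fell by 2.75 ± 0.53 on the log2 scale (adjusted p = 0.00293), a call lost without dark replicate 1 (highest adjusted p = 0.0573). EXPA8 (AT2G40610) measured 1.01 (adjusted p = 0.317), and its 72 h array of 333 lay below both dark arrays and its 24 and 48 h arrays of 1629 and 1564 above them. XTH18 (AT4G30280) had 3.34, 31.1 and 377 after 24, 48 and 72 h, and was at the floor on both dark arrays and at 24 h. It was not called (adjusted p = 0.401), but was with dim signals raised to the floor (adjusted p = 0.000119).

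**Figure D3:**
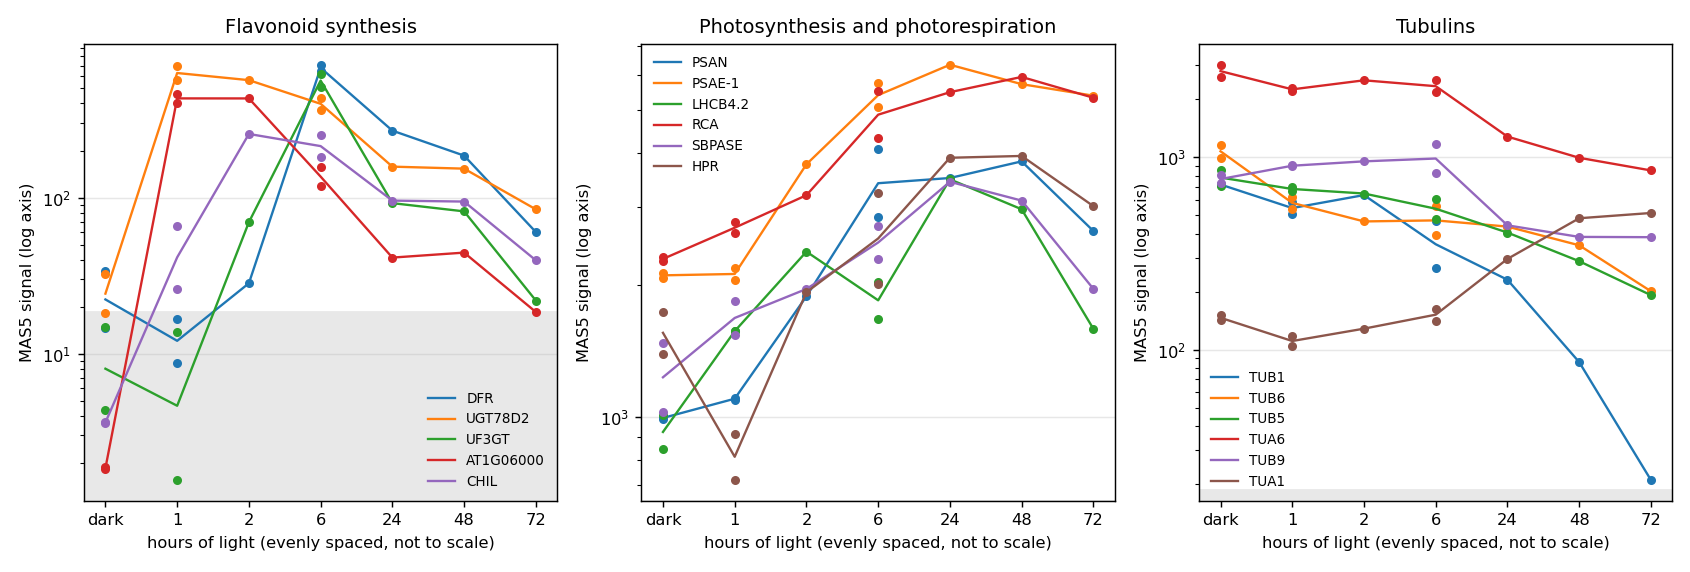
MAS5 signal (log axis) of flavonoid synthesis genes (left), nuclear photosynthesis, Calvin cycle and photorespiration genes (middle) and tubulin genes (right) in the apex in the dark and after 1, 2, 6, 24, 48 and 72 h of light; points are arrays and lines join the geometric means, over 2 arrays in the dark and at 1 and 6 h and 1 array at 2, 24, 48 and 72 h. The shaded range ends at 18.58 signal units, and flavonoid signals at 72 h lie between the dark and the 24 h values.

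Auxin genes moved in both directions. Of 33 genes 8 were measured, 2 rose and 3 fell, beside 8.61% and 6.42% of all probe sets called higher and lower. IAA20, described above, fell most. HAT2 (AT5G47370), a homeodomain gene induced by auxin, had 115, 127 and 90.3 signal units after 24, 48 and 72 h of light, against 658 and 476 in the dark, and fell by 2.35 ± 0.32 on the log2 scale (adjusted p = 0.000236). IAA29 (AT4G32280), an auxin-response repressor, had 56.9, 39.9 and 38.6 after 24, 48 and 72 h, against 333 and 268 in the dark, and fell by 2.75 ± 0.46 on the log2 scale (adjusted p = 0.00106). In both genes the late arrays were close to each other and below the dark arrays.

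Both rises were GH3 genes, which code for enzymes that join auxin to amino acids. GH3.17 (AT1G28130) had 428, 453 and 177 after 24, 48 and 72 h, against 96.2 and 81.4 in the dark, and WES1 (AT4G27260) had 521, 1049 and 1029 after 24, 48 and 72 h, against 359 and 317 in the dark. They rose by 1.88 ± 0.52 (SE, adjusted p = 0.0253) and 1.29 ± 0.32 (SE, adjusted p = 0.0143), and without dark replicate 1, dark replicate 2 or the 48 h array neither was called (highest adjusted p = 0.158 and 0.118). GH3.17 was not called without the 24 h array either, nor WES1 without the 72 h array. The auxin synthesis gene YUC4 (AT5G11320) measured 1.49 (adjusted p = 0.145). Of 2 measured cytokinin response regulators, RR16 (AT2G40670), a type-A regulator that damps the cytokinin response, had 19.98, 29.2 and 29.5 after 24, 48 and 72 h, against 0.492 and 1.54 in the dark, at least 1.57-fold higher (adjusted p = 2.88e-05). Both dark signals lay under the floor, and with dim signals raised to it RR16 was not called (adjusted p = 0.202). ARR15 (AT1G74890) was at or below the floor on all 5 arrays.

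Markers of meristem and leaf showed few calls. Of 16 shoot meristem genes 2 were measured, and STM, which keeps the meristem undifferentiated, was not among them. CLV3 (AT2G27250), the stem cell peptide, had 21.3, 24.9 and 3.63 after 24, 48 and 72 h, against 12.0 and 5.45 in the dark, above the floor at 24 and 48 h only. LAS (AT1G55580), needed for axillary meristems, had 47.7, 49.8 and 13.0 after 24, 48 and 72 h, against 33.1 and 63.4 in the dark. Neither was called (adjusted p = 0.75 and 0.536), and both had their lowest late signal at 72 h.

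Of 35 leaf primordium genes 5 were measured and 1 rose, beside 8.61% of all probe sets called higher. YAB5 (AT2G26580), a YABBY factor of young lateral organs, had 103, 129 and 99.3 after 24, 48 and 72 h, against 58.4 and 41.3 in the dark, and rose by 1.16 ± 0.27 (SE, adjusted p = 0.0109), a call lost without dark replicate 2 (highest adjusted p = 0.125). JAG (AT1G68480), which promotes growth of the leaf blade, was above the floor on every late array and on neither dark array, with 26.7, 40.9 and 49.0 after 24, 48 and 72 h, against 5.97 and 11.0 in the dark, but was not called (at least 2.29-fold higher, adjusted p = 0.171), though it was with dim signals raised to the floor (adjusted p = 0.0028). PHV (AT1G30490), a factor of the upper leaf side, YAB3 (AT4G00180) and AN (AT1G01510) measured 0.61 (adjusted p = 0.375), -0.02 (adjusted p = 0.974) and -0.37 (adjusted p = 0.557). The summed signal of the 5 genes was 697.8, 686 and 534 on the late arrays, against 646 and 516 in the dark.

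Of 4 stomatal genes, SPCH (AT5G53210), FMA (AT3G24140), MUTE (AT3G06120) and STOMAGEN (AT4G12970), 0 were called by limma (0 also at an unadjusted p under 0.05), and MUTE was at or below the floor on all 5 arrays. Their summed signal was 328, 291 and 340 on the late arrays, against 388 and 525 in the dark. Of 2 trichome genes SIM (AT5G04470), a cell cycle inhibitor, had 74.7, 67.1 and 72.5 after 24, 48 and 72 h, against 405 and 256 in the dark. It fell by 2.17 ± 0.29 on the log2 scale (adjusted p = 0.000191). TRY (AT5G53200) measured 0.59 (adjusted p = 0.578). No gene of the epidermis, vascular or root lists was measured here. The part of a changed tissue make-up in the gene groups above was not tested.

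Of 18 genes marking sugar starvation 4 were measured. In late light 2 of them fell against the dark, beside 6.42% of all probe sets called lower. With the 5 compared arrays fitted alone limma called 0 of the 4 (2 lower at an unadjusted p under 0.05). All 4 were higher than after 6 h of light. IVD (AT3G45300), isovaleryl-CoA dehydrogenase of leucine breakdown, had 84.5, 254 and 561 signal units after 24, 48 and 72 h of light, against 789.7 and 997 in the dark, and 57.4 and 33.0 after 6 h. Every late array was above both 6 h arrays and below both dark arrays. It fell by 1.95 ± 0.29 on the log2 scale (adjusted p = 0.000374) against the dark. MCCA (AT1G03090), a subunit of methylcrotonyl-CoA carboxylase in the same pathway, had 591, 812 and 1194 after 24, 48 and 72 h, against 1583 and 1907 in the dark, and 39.9 and 34.2 after 6 h.

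MCCA fell by 1.06 ± 0.27 on the log2 scale (adjusted p = 0.0174) against the dark, a call lost without dark replicate 1, dark replicate 2 or the 24 h array (highest adjusted p = 0.158). AT2G32150 had 1694, 2404 and 3408 after 24, 48 and 72 h, against 3106 and 5382 in the dark, and AT2G20670 had 1392, 1684 and 2430 after 24, 48 and 72 h, against 1772 and 2222 in the dark. Their groups overlapped and the differences were -0.77 (adjusted p = 0.568) and -0.15 (adjusted p = 0.882). Against 6 h MCCA was higher by 4.49 ± 0.27 (SE, adjusted p = 6.86e-07) and AT2G32150 by 6.06 ± 0.73 (SE, adjusted p = 0.000132), with a list median of 3.44, beside 10.3% of all probe sets called higher. The counts of 4 held without each single late or 6 h array. All 4 were also higher at 72 h than at 24 h.

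Some autophagy genes fell as well. Of 10 measured genes 4 fell, beside 6.42% of all probe sets called lower. All 4 code for the ubiquitin-like ATG8 that sits on autophagosomes. ATG8B (AT4G04620) had 77.9, 109 and 167 after 24, 48 and 72 h, against 208 and 342 in the dark, and fell by 1.25 ± 0.33 on the log2 scale (adjusted p = 0.0202). APG8A (AT4G21980), ATG8E (AT2G45170) and ATG8F (AT4G16520) fell, with log2 changes of -1.004, -1.02 and -0.90. In each of the 4 the late arrays lay below both dark arrays, which held for 20.1% of all probe sets. For the comparison with 6 h below, the share of all probe sets called higher was 10.3%. Without dark replicate 2 limma called 0 of the 10 (2 lower at an unadjusted p under 0.05), with a list median of -0.35 in place of -0.51. It also called 0 without the intensity trend in the variance prior (4 lower at an unadjusted p under 0.05). Without dark replicate 1, the 24 h array or the 72 h array the count was 2, and the median without dark replicate 1 was -0.79. Relative to 6 h there were 5 of the 10 higher, a count of 3 without 6 h replicate 1, of 2 without 6 h replicate 2 and of 1 without the 72 h array.

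Seed and oil reserve genes included some of the deepest losses. Of 5 measured genes of seed reserves and late embryogenesis 3 fell, beside 6.42% of all probe sets called lower, with a list median of -3.35. With dim signals raised to the floor the median was -2.71. Besides OLEO3, AT4G25580 had 36.2, 74.4 and 121 after 24, 48 and 72 h, against 683 and 719 in the dark, and fell by 3.35 ± 0.36 on the log2 scale (adjusted p = 3.29e-05), while its signal was higher at each later time. AT5G60760 fell by 3.77 ± 0.54 on the log2 scale (adjusted p = 0.000315). HIS1-3 (AT2G18050), a linker histone induced by drought, had 28.8, 76.0 and 353 after 24, 48 and 72 h, against 111 and 149.6 in the dark, and 72 h was above both dark arrays. It measured -0.49 (adjusted p = 0.661) against the dark and was at least 5.96-fold higher than after 6 h (adjusted p = 4.4e-05).

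PAP85 (AT3G22640), a vicilin-like storage protein, was above the floor on each late array and on neither dark array, with 34.3, 85.2 and 153 after 24, 48 and 72 h, against 11.8 and 17.7 in the dark, and missed the threshold (adjusted p = 0.0698). It was called without the 24 h array (adjusted p = 0.0456) and with dim signals raised to the floor (adjusted p = 0.000163). ICL (AT3G21720), isocitrate lyase of the glyoxylate cycle, had 58.0, 254 and 858 signal units after 24, 48 and 72 h of light, against 3667 and 3986 in the dark. Each late array was below both dark arrays, and the signal was higher at each later time. ICL fell by 4.04 ± 0.31 on the log2 scale (adjusted p = 2.06e-06). SDP1 (AT5G04040), the lipase that opens oil bodies, had 122, 186 and 326 after 24, 48 and 72 h, against 213 and 236 in the dark, and measured -0.20 (adjusted p = 0.662). It was higher than after 6 h by 1.77 ± 0.24 (SE, adjusted p = 0.000337).

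Of 3 genes on the hypoxia list, AT1G19530 changed most within late light, with 26.1, 429 and 1683 after 24, 48 and 72 h, against 637 and 1153 in the dark. The 72 h array was the highest of the 5 and the 24 h array the lowest, and the gene was not called (log2 change -1.69, adjusted p = 0.189). Without the 72 h array it was called lower (log2 change -3.02, adjusted p = 0.0381), as it was with dim signals raised to the floor (adjusted p = 0.0375). PDC2 (AT5G54960), a pyruvate decarboxylase of fermentation, had 63.1, 86.8 and 140.1 after 24, 48 and 72 h, against 21.9 and 2.40 in the dark, and rose by 3.66 ± 0.99 (SE, adjusted p = 0.0234), a call lost without dark replicate 2 or the 72 h array (highest adjusted p = 0.334). The signal of PDC2 on dark replicate 2 lay below the floor, so the size of its rise is uncertain. After 6 h AT1G19530 was at the floor, and late light was at least 17.3-fold higher (adjusted p = 4.94e-05).

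**Figure D4:**
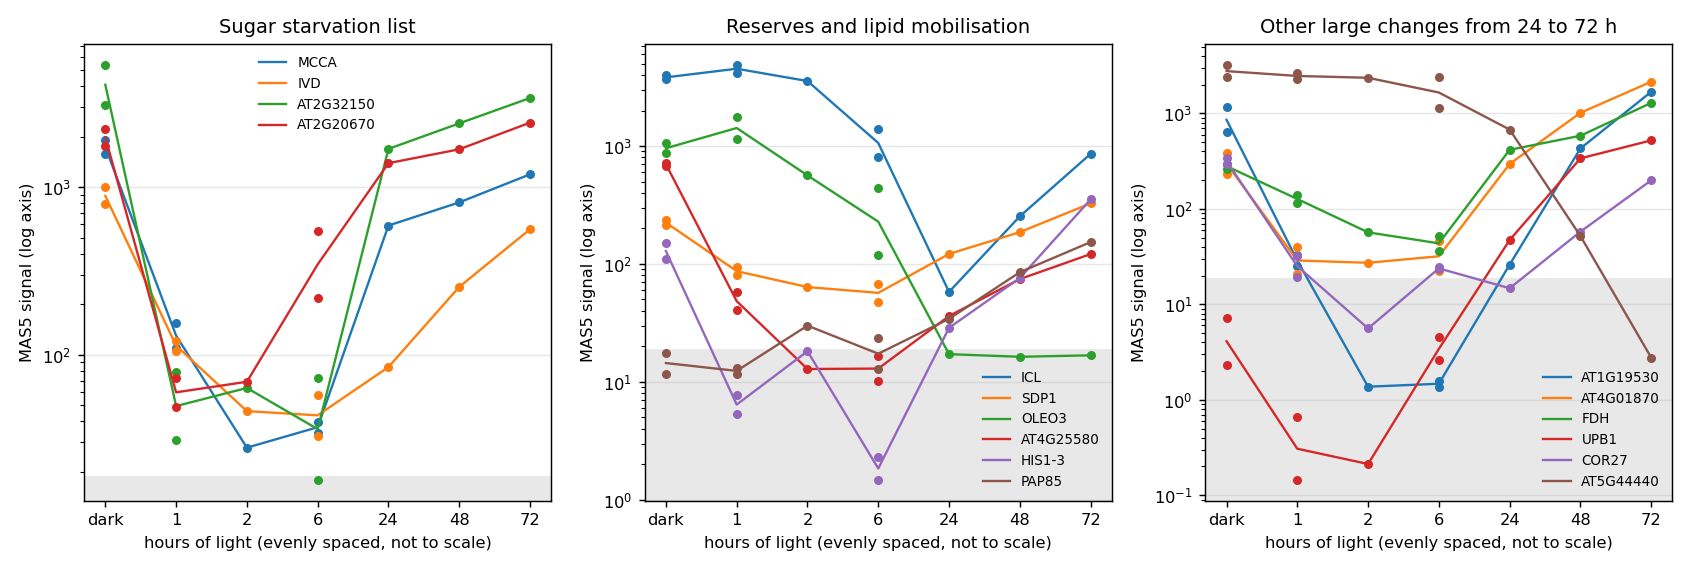
MAS5 signal (log axis) of genes of the sugar starvation list (left), of seed reserves and lipid mobilisation (middle) and of other genes with large differences between 24 and 72 h (right) in the apex in the dark and after 1, 2, 6, 24, 48 and 72 h of light; points are arrays and lines join the geometric means, over 2 arrays in the dark and at 1 and 6 h and 1 array at 2, 24, 48 and 72 h. MCCA, IVD, ICL and HIS1-3 are higher at each of 24, 48 and 72 h in turn, OLEO3 lies from 24 h on in the shaded range that ends at 18.58 signal units, and AT5G44440 ends at 2.76.

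Families of transport and detoxification genes gave scattered calls, read beside the 8.61% and 6.42% of all probe sets called higher and lower. The SWEET counts are read as no result about the family. Of 14 SWEET sugar transporters 2 rose and 1 fell, and without dark replicate 2, or without the 72 h array, the counts were 3 and 0. SWEET2 (AT3G14770) had 473, 709.7 and 551 after 24, 48 and 72 h, against 47.1 and 37.3 in the dark, and rose by 3.77 ± 0.54 (SE, adjusted p = 0.000298). SWEET17 (AT4G15920), a fructose carrier of the vacuole, had 113, 111 and 83.0 after 24, 48 and 72 h, against 15.9 and 14.1 in the dark, and rose by 2.76 ± 0.52 (SE, adjusted p = 0.00222). In both genes every late array was well above both dark arrays. SWEET11 (AT3G48740), which exports sucrose from leaf cells, fell by 1.07 ± 0.26 on the log2 scale (adjusted p = 0.0138), a call lost without dark replicate 2 or the 72 h array (highest adjusted p = 0.131). The rise gained without dark replicate 2 was that of SWEET4 (AT3G28007, adjusted p = 0.0267), and SWEET1 (AT1G21460) was the one gained without the 72 h array (adjusted p = 0.0233).

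Of 8 tau-class glutathione transferases 4 rose and 1 fell, beside 8.61% and 6.42% of all probe sets. GSTU18 (AT1G10360) had 197, 143 and 183 after 24, 48 and 72 h, against 75.8 and 86.8 in the dark, and rose by 1.09 ± 0.23 (SE, adjusted p = 0.00494), and GSTU26 (AT1G17190) had 27.0, 21.3 and 13.8 after 24, 48 and 72 h, against 86.7 and 113 in the dark, and fell by 2.31 ± 0.32 on the log2 scale (adjusted p = 0.000265). The calls of GSTU16, GSTU23 and GSTU27 were lost without dark replicate 1, among other arrays, leaving 1 rise (highest adjusted p = 0.258, 0.291 and 0.0979). Of 32 UDP-glycosyltransferases 4 rose and 2 fell, near the 8.61% and 6.42% of all probe sets, and UGT78D1 and UGT78D2 of flavonoid synthesis are among the rises. The other rises, UGT76E11 (AT3G46670) and UGT87A2 (AT2G30140), were called neither without dark replicate 2 nor without the 72 h array. UGT85A2 (AT1G22360) fell by 1.55 ± 0.31 on the log2 scale (adjusted p = 0.00341). Among 14 cytochromes P450 CYP71B34 (AT3G26300) fell by 1.08 ± 0.29 on the log2 scale (adjusted p = 0.0202), a call lost without dark replicate 2, the 48 h array or the 72 h array (highest adjusted p = 0.209). Limma called 0 of the 14 higher (1 at an unadjusted p under 0.05), and without dark replicate 2 it called 1, CYP51G2 (AT2G17330, adjusted p = 0.0131).

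Smaller lists held few measured genes. The nitrate transporter family gene AT3G21670 had 920.1, 852 and 1113 after 24, 48 and 72 h, against 299.6 and 149 in the dark, and rose by 2.18 ± 0.49 (SE, adjusted p = 0.00801), a call lost without dark replicate 2 (highest adjusted p = 0.135). APL3 (AT4G39210), a subunit of the enzyme that makes the glucose donor for starch, was at least 1.23-fold lower (adjusted p = 0.0495), a call lost without dark replicate 1, dark replicate 2 or the 48 h array (highest adjusted p = 0.522) and with dim signals raised to the floor (adjusted p = 0.598). LYC (AT3G10230), lycopene cyclase of carotenoid synthesis, measured 0.73 (adjusted p = 0.0778), and was called higher without the 72 h array (adjusted p = 0.0407). Of 3 defence and jasmonate genes THI2.2 alone was called, and of 2 measured glucosinolate genes limma called 0 (0 also at an unadjusted p under 0.05).

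The 24, 48 and 72 h arrays differed from each other in ways that have no replicate check. Across all tested probe sets the median difference of 72 h from 24 h was -0.02 on the log2 scale, and 49.0% were higher at 72 h. Among called genes named by their fitted difference of 72 h from 24 h, ICL and UPB1 were higher at 72 h by 3.89 and 3.47. COR27 (AT5G42900), a cold- and clock-regulated gene, had 14.7, 57.7 and 199 after 24, 48 and 72 h, against 295 and 339.8 in the dark, the 24 h array lying below the floor, and fell by 2.52 ± 0.44 on the log2 scale (adjusted p = 0.00132) against the dark. AT4G34950 had 55.0, 53.9 and 588 after 24, 48 and 72 h, against 18.9 and 14.4 in the dark, a step at 72 h alone, and rose by 2.87 ± 0.40 (SE, adjusted p = 0.000244). AT3G04010 was above the floor only at 72 h among the late arrays, and AT5G07820 at none, so the order of its late arrays is not known. Both fell against the dark (adjusted p = 0.0253 and 0.0149), and both calls were lost without dark replicate 1, dark replicate 2 or the 24 h array.

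AT5G44440, AT1G08350, AT5G02890, AT4G29690, AT5G20740 and AT1G67750 were named by a fitted difference of the other sign. All 6 were at or below the floor at 72 h, so the sizes of these differences have no order, and AT4G29690 has no order among its late arrays. AT5G02890 had 82.8, 48.2 and 3.47 after 24, 48 and 72 h, against 144 and 136 in the dark, and AT1G67750 had 80.5, 40.2 and 6.03 after 24, 48 and 72 h, against 574 and 426 in the dark. Their log2 changes against the dark were -2.54 ± 0.22 (SE, adjusted p = 4.64e-06) and -4.199 ± 0.40 (SE, adjusted p = 1.21e-05). In AT5G02890, AT1G08350, AT5G20740 and AT1G67750 the 72 h array was at or below the floor and the 24 and 48 h arrays above it. The calls of AT1G08350 and AT5G20740 against the dark were lost without the 72 h array, with adjusted p = 0.692 and 0.115, and that of AT1G08350 also without dark replicate 1 and with dim signals raised to the floor (adjusted p = 0.349). AT4G29690 was at or below the floor at each late time and at least 4.02-fold lower than in the dark (adjusted p = 4.15e-06).

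Set against 6 h of light, late light differed at 3429 probe sets (18.8%), 1878 higher (10.3%) and 1551 lower (8.50%). The dark arrays do not enter this difference, but they enter the shared estimate of the spread. The median of all probe sets was 0.13. With each array centred on its median signal 33.45% of the calls were higher, in place of 54.77%, so the balance between rises and falls depends on the scaling. Without the 72 h array the count was 2167, and without 6 h replicate 2 it was 2020. FDH (AT5G14780), formate dehydrogenase, had 415, 583 and 1288 after 24, 48 and 72 h, and 52.4 and 36.1 after 6 h. It was higher by 3.96 ± 0.24 (SE, adjusted p = 6.86e-07) against 6 h and rose by 1.28 ± 0.24 (SE, adjusted p = 0.00265) against the dark, where the call was lost without the 72 h array (highest adjusted p = 0.0686). AT4G01870 had 295, 1014 and 2146 after 24, 48 and 72 h, and 45.6 and 22.2 after 6 h, and was higher by 4.76 ± 0.40 (SE, adjusted p = 1.04e-05).

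Only genes also called against the dark were ranked by their difference from 6 h. Among those furthest below 6 h, MSRB6 (AT4G04840), a methionine sulfoxide reductase, had 209, 71.9 and 13.4 after 24, 48 and 72 h, and 639 and 1487 after 6 h. Its log2 difference from 6 h was -4.05 ± 0.63 (SE, adjusted p = 0.000686), and it was at least 3.57-fold above the dark group (adjusted p = 0.00211), whose arrays had 2.68 and 11.9. AT2G47780 had 40.1, 14.0 and 26.4 after 24, 48 and 72 h, and 687 and 365 after 6 h. SUFE2 was at least 4.65-fold lower than after 6 h (adjusted p = 2.12e-07). Both AT2G47780 and SUFE2 were lowest in late light and highest in the dark, whereas MSRB6 was highest after 6 h.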

How the data were processed

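RNA from dissected shoot apices and cotyledons was hybridised to 16 ATH1 arrays. Per the submitters' processing notes, the deposited intensity values were made with MAS5 in GCOS, and the trimmed mean of every array, leaving out 2% at each end, was 100.01. These intensities were used as deposited, as log2 signal with no pseudocount, and of 22746 probe sets besides controls the platform annotation gives 13513 a single gene, 503 several and 8730 none. No sequencing depth applies, and the number of arrays limits the precision.

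Probe sets above the 35th percentile of their array on at least 2 arrays were tested (18237). The limma package (version 3.58.1, R 4.3.3) fitted 10 group means to 16 arrays (6 residual degrees of freedom), with eBayes and an intensity trend, two-sided tests and Benjamini-Hochberg adjustment over all tested probe sets. The contrasts were the mean of the 24, 48 and 72 h means minus the dark mean, and minus the 6 h mean. Times with 1 array are thereby assumed to vary like the replicated groups. In data simulated for late light against dark, the fit over 18237 probe sets called 57% of 100 probe sets changed by 2 on the log2 scale and 9% of 100 changed by 1. It also made 4 false calls. Only these probe sets were changed there, against 2740 called in the data, and the adjusted p depends on that number. The shares therefore do not measure how many real changes this comparison found.

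Named genes were the 12 largest called changes each way by fitted change (1 gene, above the floor on every array of at least 1 group, groups not overlapping) and members of the gene lists. The 6 largest changes each way between 24 and 72 h, among genes that met the same conditions, were added. So were the 6 largest each way against 6 h among genes called both against the dark and against 6 h. Where probe sets shared a gene, the brightest on average stood for it. The arrays, the lists and the floor were chosen with earlier results of these data known. Replicate numbers were not treated as a pairing, since the labels do not say whether they mark shared experiments. Over 15 pairs of groups, deviations of same-numbered arrays correlated at -0.13 to 0.12. Correlations over whole arrays cannot settle whether same-numbered samples were handled together. Alternatives covered scaling, variance prior, filter, pseudocount, grouping of the late arrays, the replicate number and leaving out arrays. Promoter sequences were not used here.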

Additional observations from a re-analysis of the deposited data

How the results depend on the processing

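Late light against dark gave 2740 called probe sets. Leaving out 1 array at a time gave 1470 to 2346, with 923 to 1385 higher and 547 to 1032 lower, and the lowest counts came without dark replicate 2. Without both dark replicate 2 and 6 h replicate 2 the count was 1791, with 718 lower, and a fit to the 5 compared arrays alone gave 758 lower. Other settings gave 1940 (no intensity trend) to 3336 (log2 of signal plus 16) calls. Raising dim signals to the 35th percentile, an alternative chosen after seeing the data, gave 3141. With the replicate number as a block 2333 were called, 2225 of them shared. The numbers were not treated as a pairing, and no block value is read as a weaker effect. Late light against 6 h gave 3429 called probe sets and, without 1 array at a time, 2020 to 3436, with 1101 to 1984 higher and 919 to 1637 lower. Without the intensity trend 2260 were called and 1209 were higher, and with median centring 1081 were higher. The block gave 2574. The chloroplast gene rpoC2 (ArthCp012) measured 0.13 against 6 h and was not called, with 2.04 without 6 h replicate 1 and -1.79 without 6 h replicate 2. The cause of these shifts was not tested. Median centring left 0 of the 3 rises of 40S ribosomal genes in limma's test (3 at an unadjusted p under 0.05). Over all named genes and alternatives, 6841 values against the dark stayed on their side of the threshold, 300 lost the call and 94 gained it, and 3715, 264 and 115 did so against 6 h. The 24 h, 48 h and 72 h groups have 1 array each, signals near the floor have no order, and genes without a probe set of their own are not described.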

Other observations

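The genes below were chosen as single genes after their values were seen, and the share called of their classes was not counted. Several nuclear genes for chloroplast proteins outside the photosynthesis list rose in late light. CaS (AT5G23060), a calcium-sensing protein of the thylakoid, had 729, 593 and 396 after 24, 48 and 72 h, against 75.8 and 104 in the dark, and LHCB4.3 (AT2G40100), an antenna gene related to LHCB4.2, had 564, 309.6 and 107 after 24, 48 and 72 h, against 38.8 and 55.7 in the dark. They rose by 2.64 ± 0.26 (SE, adjusted p = 1.63e-05) and 2.51 ± 0.37 (SE, adjusted p = 0.00037) in limma's test, and both were lower at each later time. TRXF2 (AT5G16400), a thioredoxin that activates Calvin cycle enzymes, rose by 1.53 on the log2 scale. NdhN (AT5G58260) and CRR42 (AT5G20935), which serve the chloroplast NDH complex, rose by 1.495 and 1.53. PIFI (AT3G15840) rose by 1.43 and had its highest signal at 72 h. NTRC (AT2G41680), a thioredoxin reductase of the chloroplast, rose by 1.28, a call lost without dark replicate 1 (highest adjusted p = 0.0735).

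Some metal and sugar transport genes, and single genes of other kinds, were also among the rises. MT1C (AT1G07610), a metallothionein, had 1294, 1549 and 2240 after 24, 48 and 72 h, against 155 and 124 in the dark, and rose by 3.57 ± 0.39 (SE, adjusted p = 3.42e-05). MTP11 (AT2G39450), a manganese transporter, rose by 2.19 ± 0.26 (SE, adjusted p = 6.86e-05). The sugar transporter-like genes SFP1 (AT5G27350) and SFP2 (AT5G27360) rose by 2.69 and 2.37. CYTC-2 (AT4G10040), a cytochrome c, had 99.1, 154 and 182 after 24, 48 and 72 h, against 10.1 and 15.3 in the dark, at least 8.56-fold higher (adjusted p = 3.07e-06). LPR2 (AT1G71040), of the root's low-phosphate response, had 89.0, 171 and 284 after 24, 48 and 72 h, against 24.1 and 42.3 in the dark, and rose by 2.35 ± 0.51 (SE, adjusted p = 0.00635), a call lost without dark replicate 1 (highest adjusted p = 0.0809). STZ (AT1G27730), a zinc finger repressor of stress responses, was higher at each later time and rose by 3.40 ± 0.92 (SE, adjusted p = 0.0237), a call lost without dark replicate 1, dark replicate 2 or the 72 h array (highest adjusted p = 0.145).

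Among the falls were single genes of the actin skeleton and of growth. PLIM2b (AT1G01780), an actin-bundling LIM protein, had 87.7, 73.8 and 131 after 24, 48 and 72 h, against 806 and 889 in the dark, and fell by 3.16 ± 0.22 on the log2 scale (adjusted p = 1.07e-06). WLIM2a (AT2G39900), of the same family, fell by 1.46 ± 0.22 on the log2 scale (adjusted p = 0.000525). SPT (AT4G36930), a growth-limiting transcription factor, had 68.0, 49.6 and 64.4 after 24, 48 and 72 h, against 351 and 320.4 in the dark, with both dark arrays far above the late ones, and fell by 2.48 ± 0.27 on the log2 scale (adjusted p = 3.29e-05). EXO (AT4G08950), a gene linked to brassinosteroid-promoted growth, had 465, 411 and 2168 after 24, 48 and 72 h, against 3130 and 3540 in the dark, and fell by 2.16 ± 0.29 on the log2 scale (adjusted p = 0.000193) although its 72 h array was well above 24 and 48 h. GSO1 (AT4G20140), a receptor kinase, RALFL32 (AT4G14010), a signalling peptide, and DRT100 (AT3G12610) fell, with log2 changes of -2.26, -2.46 and -2.47, and all 3 had their lowest signal at 72 h. The glucosinolate transporter genes went apart: GTR1 (AT3G47960) rose by 1.40 and GTR2 (AT5G62680) had a log2 change of -1.27, the first call being lost without dark replicate 2 (highest adjusted p = 0.0888) and the other without dark replicate 1, dark replicate 2 or the 24 h array (highest adjusted p = 0.0911).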
